A study of Caenorhabditis elegans with 2 samples.

Results

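The PAR polarity genes par-1, par-2, par-3, par-4, par-5 and par-6 were examined for binding of EFL-1, an E2F-family transcription factor, by ChIP-seq in whole first-larval-stage (L1) Caenorhabditis elegans. All 6 symbols matched 1 annotated gene each, and the nuclear chromosomes hold 19973 protein-coding genes in all. There is a single group of 2 biological replicates, which the labels number 2 and 3, and no untreated or mutant group. All worms were of strain YL418, mixed in sex and of unknown age, with the allele unc-119(ed3) and the integrated transgene vrIs65. The transgene carries EFL-1 with GFP and FLAG under the ges-1 promoter, which is active in the intestine, and an unc-119 rescue copy. The labels name the antibody only by efl-1, and do not say whether it binds the tag or EFL-1 itself, nor which tissues held the tagged protein. Whether the peaks report the transgene's protein alone or also the worm's own EFL-1 thus cannot be told apart, and a gene without a peak may be bound in cells that these libraries do not represent. Read depth is unknown, because the deposited lists hold regions and not read counts.

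The par genes were found through mutants in which the first division of the embryo is not partitioned. PAR-3 and PAR-6, with the atypical protein kinase PKC-3, occupy the anterior cortex of the zygote, and the RING-finger protein PAR-2 and the kinase PAR-1 occupy the posterior cortex, each side excluding the other. PAR-4, the worm LKB1 kinase, and PAR-5, a 14-3-3 protein, are found on both sides. Several of these proteins also act later, in epithelia and in neuroblast divisions. E2F factors bind promoters, classically those of cell-cycle genes.

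An EFL-1 summit passing the authors' irreproducible discovery rate (IDR) threshold lay in a promoter window of 2 of the 6 genes, par-2 and par-5, against 11% of all protein-coding genes. A promoter window was 1000 bp before and 500 bp after the 5' end of any transcript. In both cases the summit lay far upstream and nearer to the 5' end of another gene. The par-2 summit stood just inside rab-18, upstream of kbp-4, and the par-5 summit inside the neighbouring gene M117.3. With each summit counted only for the gene whose 5' end is nearest, 0 of the 6 genes had one, against 7.50% of all genes.

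The count of par genes changed with the window and with the IDR threshold. With all 30000 pooled regions 4 of the 6 were called, par-1 and par-3 besides, against 51.0% of all genes. Among the 943 strongest IDR peaks the same 2 genes were called, against 6.48% of all genes. The same 2 were called from the 1886 strongest regions of replicate 3 alone (background 10.4%) and of replicate 2 alone (background 10.8%). They were also called with a window of 2000 bp upstream (background 13.5%) and when a peak needed to meet the window by only 1 bp (background 11.4%). When the window was cut to 300 bp before and 100 bp after the 5' end, 0 of the 6 were called, against 7.17% of all genes. Among genes with no same-strand gene within 500 bp upstream, 1 of the 4 par genes left was called, par-5, against 11.5% of such genes.

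The following stretches show the 2 motif sites at the par-2 peak, the summit of the par-5 peak, the motif site at the weak region that lies directly before par-5, and the summit and the motif site of the 2 strongest regions in par-1. They are read from the RefSeq WBcel235 assembly (ce11 coordinates), plus strand. Capitals mark the motif, or the summit base where the line is named summit.
par-2 peak, E2F site, chrIII:1080774-1080803: gagacccgatgGCGCGAAAatggatttgtt
par-2 peak, TTTGAA site, chrIII:1080790-1080819: aaaatggatttgTTTGAAatttgttttttt
par-5 peak, summit, chrIV:11822650-11822679: gaaatatcgcgcagAgggaatagcttgcgc
region before par-5, TTTGAA site, chrIV:11822014-11822043: gcccgcacgacgTTTGAAagaagaaaaatc
par-1 intron peak, summit, chrV:14136357-14136386: tagatgagagacggCacgcgagacgctaga
par-1 region below the threshold, TTTGAA site, chrV:14133196-14133225: tttcggcggtagTTTGAAaattgaaacgaa

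Of the posterior pair, par-2 (WBGene00003917, chromosome III, 1081401 to 1095082, plus strand) had the strongest promoter signal of the family. Its IDR peak (chromosome III, 1080642 to 1080883, 242 bp wide) had a signal of 527 in the pooled list and ranked 141 of 1886. The signal was 328 in replicate 2, where it ranked 184, and 196 in replicate 3, where it ranked 82. The peak was thus among the strongest regions of both libraries, and the 2 replicate summits lay 4 bp apart. Signal scales differ between libraries, so each value was also divided by its replicate's median over the IDR peaks, 45.8 in replicate 2 and 19.2 in replicate 3. On that scale par-2 stood at 7.17 in replicate 2 and 10.2 in replicate 3, a mean of 8.69 ± 2.14 (SD, n = 2). Of all protein-coding genes, 0.911% had a stronger promoter region in the pooled list.

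**Figure D1:**
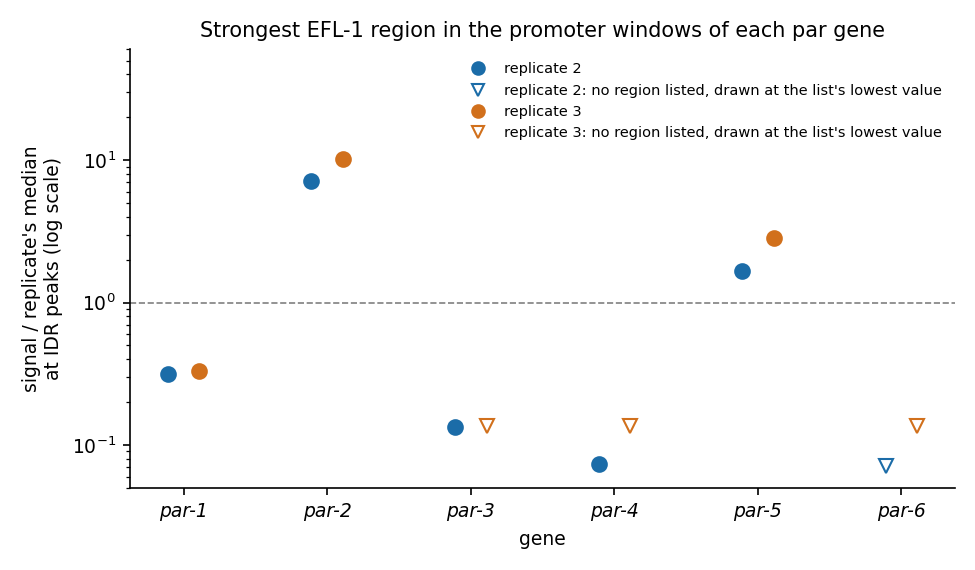
Signal of the strongest EFL-1 region in the promoter windows of each par gene (x axis), divided by the replicate's median at IDR peaks (y axis, log scale), with 1 point per replicate; open triangles mark genes without a listed region, drawn at the lowest value of that list, and the dashed line is the median IDR peak. The points of par-2 (7.17 and 10.2) and par-5 (1.67 and 2.83) lie above the line, and those of the other genes below it.

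The par-2 peak lay at the divergent 5' ends of rab-18 and kbp-4. The summit (chromosome III, 1080761) lay 640 bp upstream of the first par-2 5' end. It lay 14 bp downstream of the 5' end of rab-18, a small GTPase gene on the minus strand, in its annotated 5' untranslated region. It lay 140 bp upstream of kbp-4, which encodes a kinetochore protein and lies whole (400 bp) between the summit and par-2. The rab-18 and kbp-4 genes diverge from a gap of 125 bp. The kbp-4 and par-2 genes are on the same strand, 100 bp apart, and whether they are transcribed as 1 unit is not given in the annotation used here.

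At the 5' end of par-2 itself only a faint region was listed. In the pooled list its summit lay 269 bp inside the gene, in coding sequence, with a signal of 9.62 and rank 8520 of 30000. The upstream peak was 54.8 times as high. In replicate 2 the corresponding region had a signal of 6.02, 237 bp inside the gene, and in replicate 3 a region with a signal of 3.43 lay 487 bp inside it. The lowest listed signals were 3.25 in replicate 2 and 2.63 in replicate 3, and the regions ranked 9105 and 20607 of 30000. At the second par-2 start, that of the short transcript F58B6.3c.1, the pooled list held a region with a signal of 6.38, 73 bp upstream, and neither replicate list held one in its window. Which of the 3 genes the par-2 peak acts on was not tested.

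**Figure D2:**
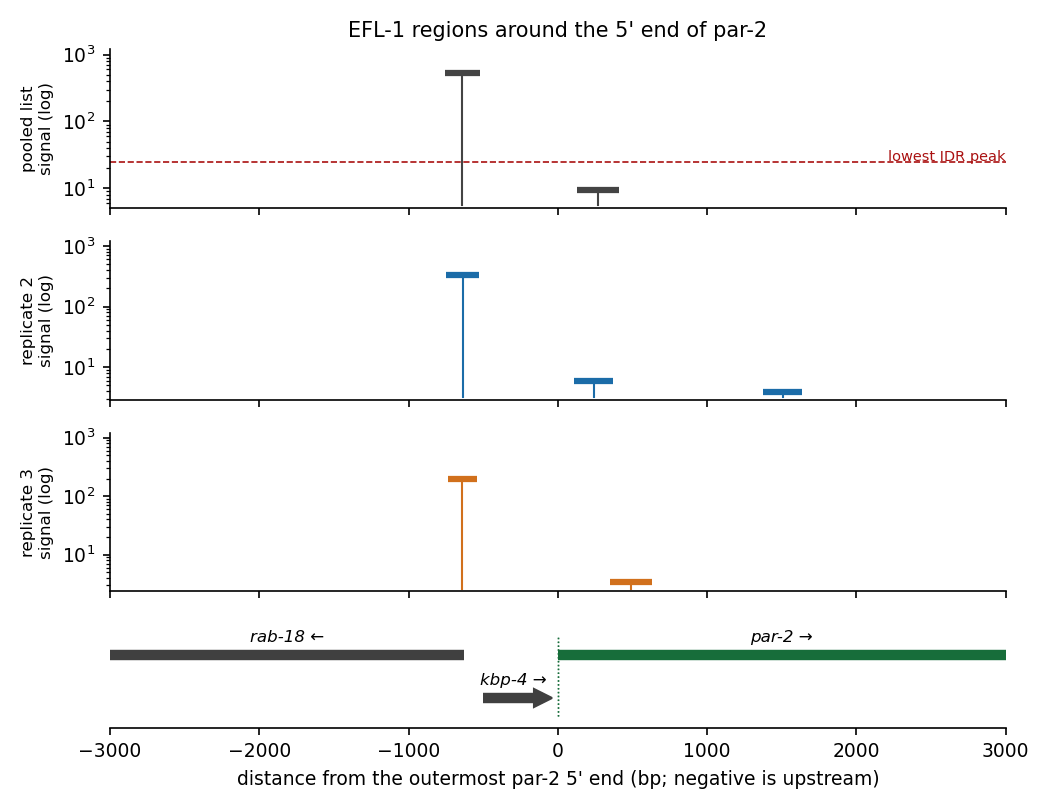
Regions in the pooled list and in each replicate (bars show their extent and height, vertical lines their summit; y axis, signal on a log scale) against the distance in bp from the outermost par-2 5' end, with genes below and par-2 5' ends dotted. The strong peak stands 640 bp upstream, at the start of rab-18 and before kbp-4, and the region inside par-2 has a pooled signal of 9.62, below the lowest IDR peak (dashed, 24.4).

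Both motifs examined lay at the par-2 peak, in the gap between rab-18 and kbp-4. The E2F consensus was searched in its 4 forms TTTCCCGC, TTTCGCGC, TTTGCCGC and TTTGGCGC, and the cell cycle homology region core as TTTGAA, on both strands within 100 bp of a summit. The E2F form TTTCGCGC lay on the minus strand with its centre 27 bp from the summit, and TTTGAA on the plus strand 43 bp from it, without overlap. Over all 1886 IDR summits, 12.4% had the E2F consensus and 49.8% had TTTGAA in windows of that length. With the letters of each motif in reverse order, as a control, the shares were 6.2% and 21.2%. A match describes the letters in the window and is not a measured site. The peak's sequence had 36 partial alignments elsewhere in the genome (BLAST, E-value up to 1e-05), the longest 90 bp at 74.4% identity. Low-complexity sequence was not masked, and alignments were counted, not separate places in the genome.

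The posterior kinase gene par-1 (WBGene00003916, chromosome V, 14112033 to 14145367, minus strand) had no IDR summit in any of its windows, although it has 11 different 5' ends. Its strongest pooled promoter region (chromosome V, 14133100 to 14133383) had a signal of 24.3 and ranked 1891, 5 places below the last of the 1886 IDR peaks, whose lowest signal was 24.4. Its −log10 q-value, as deposited, was 2.88, and the lowest among the IDR peaks was 2.85. The summit lay 888 bp upstream of the 5' end of transcript H39E23.1b.1, in a coding exon of longer transcripts, and TTTGAA lay 32 bp from it. The signal there was 14.3 in replicate 2 (rank 2211) and 6.26 in replicate 3 (rank 5107). Scaled, these were 0.313 and 0.326, a mean of 0.320 ± 0.00880 (SD, n = 2), below the median IDR peak in both libraries. In replicate 3 another promoter region of par-1, before the 5' end of H39E23.1i.1, was slightly higher at 6.40. Of all genes, 11.01% had a stronger promoter region in the pooled list.

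The IDR peak inside par-1 lay in an intron and in no promoter window. It (chromosome V, 14136229 to 14136512) had a pooled signal of 29.01 and ranked 1656. The summit was 4017 bp upstream of the 5' end of H39E23.1b.1. The gene AH10.4, on the same strand inside par-1, starts 1495 bp further upstream and ends before the summit. The signals were 15.99 in replicate 2 (rank 2015) and 14.2 in replicate 3 (rank 1202), scaled 0.349 and 0.738, a mean of 0.544 ± 0.275 (SD, n = 2). Both replicates listed the region, with summits 42 bp apart, and both placed it below their median IDR peak. Neither motif lay within 100 bp of this summit. Of the 345 IDR summits outside all promoter windows, 132 lay in introns, and 266 had a higher signal. The pooled list held 14 regions with summits inside par-1, of which this was the only one in the IDR set, and none at the windows of the long transcripts H39E23.1a.1 and H39E23.1m.1. In the H39E23.1a.1 window replicate 2 listed 1 region, with a signal of 5.97, and replicate 3 listed 2, the stronger at 4.30. Neither replicate listed a region in the H39E23.1m.1 window.

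**Figure D3:**
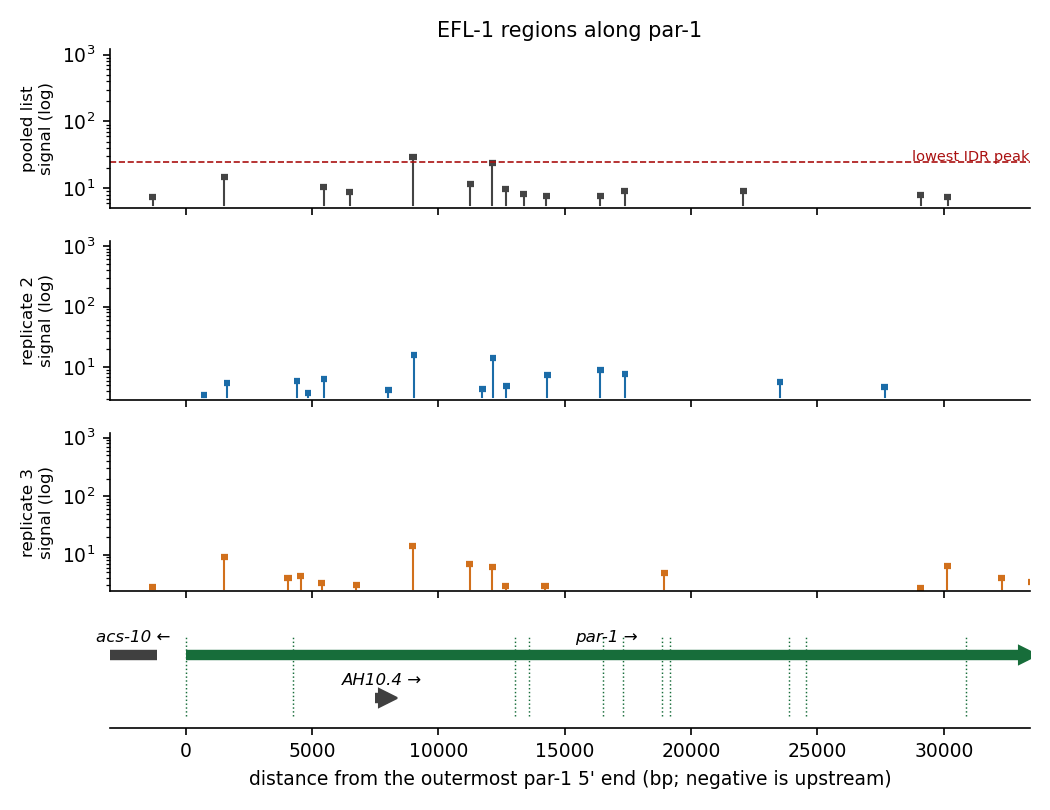
Regions in the pooled list and in each replicate (y axes, signal on a log scale) along par-1, against the distance in bp from its outermost 5' end; dotted lines are the 11 annotated 5' ends and the dashed line is the lowest IDR peak (24.4). The intron peak reaches 29.01 in the pooled list, and the region before the 5' end of H39E23.1b.1 reaches 24.3, just under the line.

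Of the pair found throughout the zygote, par-5 (WBGene00003920, chromosome IV, 11820506 to 11821924, minus strand) had an IDR summit in its window. PAR-5 is a 14-3-3 protein, which binds phosphorylated partners. The peak (chromosome IV, 11822610 to 11822727, 118 bp wide) had a pooled signal of 131 and ranked 561. The signal was 76.3 in replicate 2 (rank 645) and 54.3 in replicate 3 (rank 454), with summits 27 bp apart. Scaled, par-5 stood at 1.67 and 2.83, a mean of 2.25 ± 0.820 (SD, n = 2), above the median IDR peak in both replicates. Both par-2 values lay above both par-5 values, and both par-5 values above those of par-1. The spreads did not overlap, but 2 replicates are no test of that order. In the pooled list 3.92% of genes had a stronger promoter region.

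The par-5 peak lay inside the next gene. The summit (chromosome IV, 11822664) was 740 bp upstream of the outermost par-5 5' end and 458 bp downstream of the 5' end of M117.3, in an intron of it. M117.3 diverges from par-5 across a gap of 281 bp, and RefSeq names its product a 14-3-3 domain-containing protein, like that of par-5. Over 352 aligned coding bases the pair were 72.7% identical. The sequence of the peak itself had no second match in the genome (BLAST, E-value up to 1e-05), and neither motif lay within 100 bp of its summit.

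In the gap between par-5 and M117.3 a weaker region lay outside the IDR set. Its pooled summit (chromosome IV, 11822084) was 160 bp upstream of par-5 and 122 bp upstream of M117.3, with a signal of 18.7 and rank 2400. The signal was 9.97 in replicate 2 (rank 3274) and 8.13 in replicate 3 (rank 2609), with summits 91 bp apart. Scaled, these were 0.218 and 0.423, a mean of 0.320 ± 0.145 (SD, n = 2). The peak inside M117.3 was 7.65 times as high as this region in replicate 2 and 6.68 times in replicate 3. TTTGAA lay 56 bp from the weaker summit. Both replicates therefore placed more signal inside M117.3 than directly before par-5, and which gene either region acts on was not tested.

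**Figure D4:**
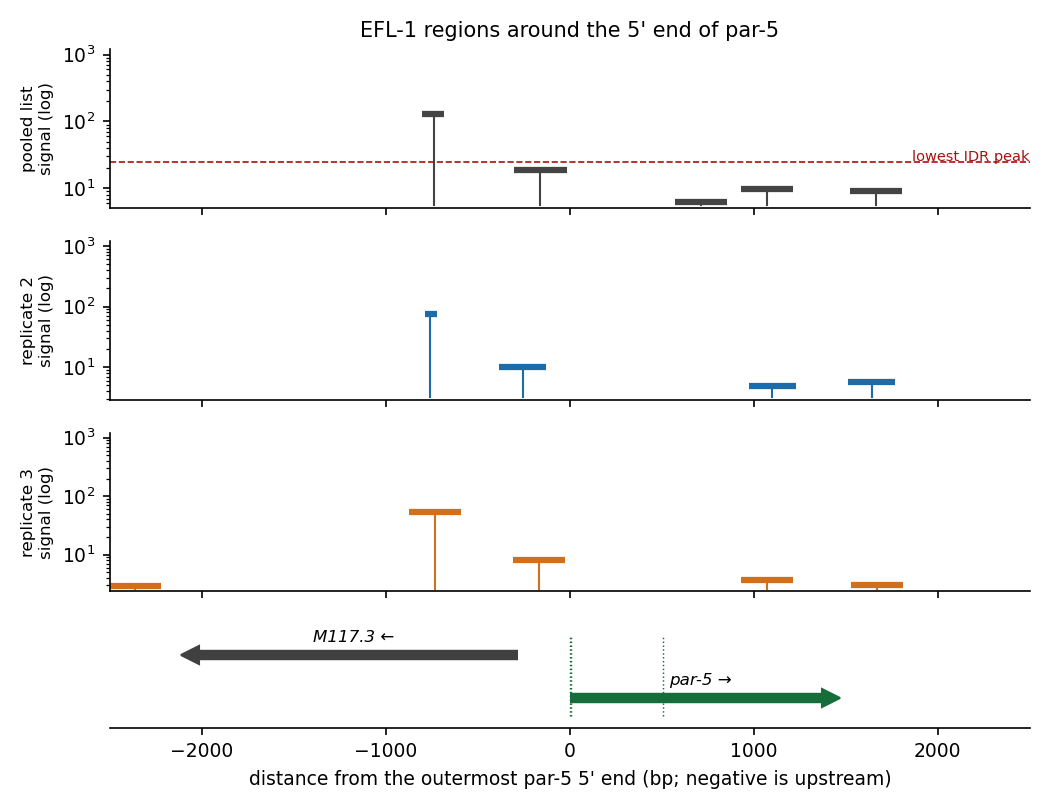
Regions in the pooled list and in each replicate (y axes, signal on a log scale) against the distance in bp from the outermost par-5 5' end, with genes below and par-5 5' ends dotted. The IDR peak stands 740 bp upstream, inside M117.3, with a pooled signal of 131, and the region between the divergent genes, 160 bp upstream, has 18.7, below the lowest IDR peak (dashed, 24.4).

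The LKB1 kinase gene par-4 (WBGene00003919, chromosome V, 18098687 to 18106405, plus strand) had no pooled region in its windows. Replicate 2 listed 2 faint ones, with signals of 3.38 and 3.35 and ranks 28283 and 29001 of 30000. Replicate 3, whose lowest listed value was 2.63, listed none. A pooled region with a signal of 10.8 (rank 6210) lay in an intron, 1070 bp downstream of the first 5' end, with signals of 3.77 in replicate 2 and 5.55 in replicate 3. The pooled value was below the lowest IDR peak (24.4), and the scaled replicate values were 0.0823 in replicate 2 and 0.289 in replicate 3. The gene before par-4 on the same strand, slr-2, ends 568 bp upstream.

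The anterior scaffold genes par-3 and par-6 had no IDR summit in their windows. At par-3 (WBGene00003918, chromosome III, 5664233 to 5676795, plus strand) the 4 outer 5' ends had no pooled region in their windows, and the inner one, that of F54E7.3c.1, had 2, with signals of 8.26 and 6.79. Replicate 2 also listed 2 regions there, at 6.13 and 4.26, and replicate 3 listed none. The strongest pooled region inside par-3, at 15.6 and rank 2924, lay in an intron 1150 bp downstream of its nearest 5' end. It had a signal of 14.9 in replicate 2 and no counterpart within 150 bp in replicate 3, so it rested on 1 library. Past the 3' end of par-3 stood an IDR peak of rank 75 with a pooled signal of 756. It lay 130 bp upstream of ska-3, a gene of a kinetochore-associated complex, and 163 bp upstream of the ribosomal protein gene rps-12, and in no par-3 window.

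At par-6 (WBGene00003921, chromosome I, 12669380 to 12674449, plus strand), which encodes the PDZ-domain partner of PKC-3, no list held a region in a promoter window of any of its 3 different 5' ends. The pooled region nearest to one, 804 bp downstream of that of T26E3.3b.1, had a signal of 6.54 and ranked 22899. The lowest values listed were 3.25 in replicate 2 and 2.63 in replicate 3, and the lists give no signal where no region is listed. The gene before par-6 on the same strand, T26E3.4, ends 486 bp upstream.

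Over the family, 4 of the 6 genes had a pooled region in a promoter window, against 51.0% of all genes. The median of the strongest pooled promoter signal was 16.3 over the 6 genes and 5.83 over all protein-coding genes, with genes without a region set at the bottom. The value of 5.83 is close to the lowest pooled signal, 5.72, and over genes with a pooled region the median was 9.31. The family median lies between par-1 (24.3) and par-3 (8.26), whose strongest regions were sought over 11 and 5 different 5' ends. The par-2 and par-5 values raise the family median, and both belong to peaks nearer to another gene.

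The distances at par-2 and par-5 are in the tail of the distribution for all genes with an IDR promoter summit. Over those 2200 genes the median signed distance was -215 bp. Summits as far upstream as that of par-2 stood at 235 genes (10.7%), and 163 of these summits (69.4%) were nearer to another gene's 5' end. As far upstream as that of par-5 there were 162 genes (7.36%), with 124 (76.5%) nearer to another gene. Over all 2200 genes the share was 32.4%. The par-2 peak counted for 3 genes, as did 2.99% of the 1541 IDR peaks in windows if peaks with more than 3 genes are included.

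**Figure D5:**
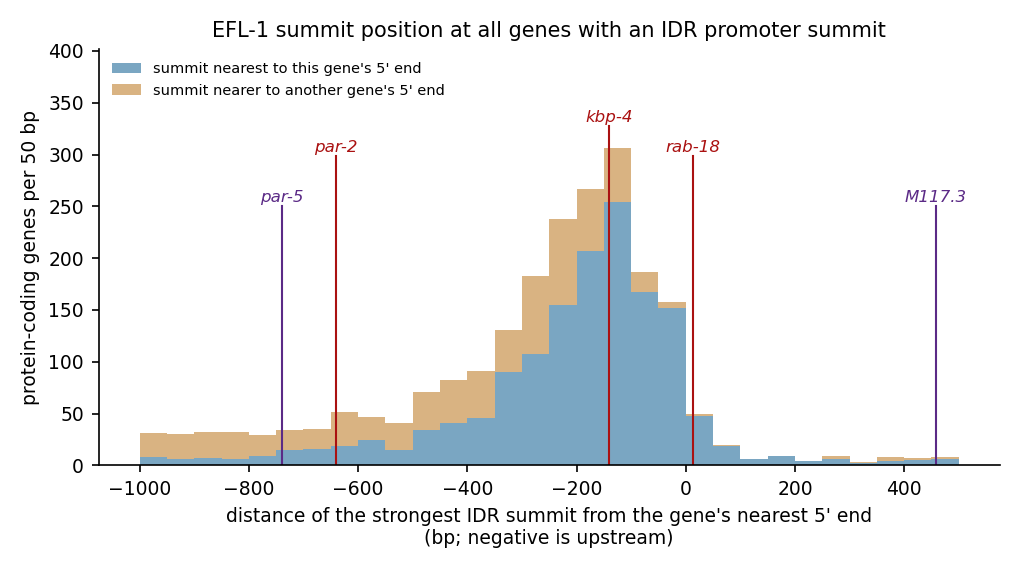
Number of protein-coding genes per 50 bp (y axis) by distance of the strongest IDR summit from the gene's nearest 5' end in bp (x axis), for the 2200 genes with an IDR promoter summit, split by whether the summit is nearest to that gene. Vertical lines give the par-2 peak as seen from par-2 (-640), kbp-4 (-140) and rab-18 (14), and the par-5 peak as seen from par-5 (-740) and M117.3 (458).

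Genes with the scaled signals most like those of par-2 and par-5 were found by distance over the 2 replicates on the log2 scale. For par-2 they were the mitochondrial ribosomal protein gene mrpl-55 (6.95 and 9.63, distance 0.09) and fbxb-88 (7.63 and 9.76, distance 0.11). For par-5 they were rpl-41.1 and M04F3.5, which share a peak (1.61 and 2.59, distance 0.14). In the pooled ranking, par-2 came between the peak of spg-7 and Y47G6A.14 (531) and that of F02E9.1 and F02E9.3 (526). The summits at fbxb-88, rpl-41.1, Y47G6A.14 and F02E9.3 were nearer to another gene's 5' end. Those at mrpl-55, M04F3.5, spg-7 and F02E9.1 were nearest to the gene's own. The fbxb-88 peak also lay in a window of tbck-1. With 2 libraries, such likeness says only that the heights are close.

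Genes that act with the PAR proteins carried IDR promoter summits at 15 of 49, beside the 11% of all genes. Of the 15 summits, 10 were nearest to the gene's own 5' end, as were 67.6% over all 2200 genes called. The lists were written with earlier results of these data known, and they include cytokinesis and centrosome genes. The count therefore describes these lists only, and a link to polarity was not tested. Among the direct partners of PAR-3 and PAR-6, pkc-3 had a weak peak 206 bp upstream (scaled 0.432 ± 0.116, SD, n = 2) and cdc-42, the GTPase that activates the complex, had none. In that list of 5, chin-1 (0.785 ± 0.273) was called, with a summit nearest to BE0003N10.1, and cgef-1 and lgl-1 were not. From the strongest regions of replicate 3 alone, pkc-3 was not called. Of 10 genes of the actomyosin cortex and of symmetry breaking, 5 had peaks. These were ect-2 (2.58 ± 0.223) and cyk-4 (2.16 ± 0.594), both needed for cytokinesis, the Aurora kinase gene air-1 (0.944 ± 0.102), and the centrosome genes spd-2 (1.43 ± 0.305) and spd-5 (1.60 ± 0.0943). The air-1 summit lay nearest to cogc-6. The myosin genes nmy-2 and mlc-4, let-502 and mel-11 were among those without one.

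Among the 9 relatives and partners of PAR-4 and PAR-5, 2 were called, beside 11% of all genes. The kinase gene pig-1, whose product acts in neuroblast divisions, had the strongest peak of the partner lists, 144 bp upstream (4.67 ± 1.57, SD, n = 2). The second 14-3-3 gene, ftt-2, had a peak 507 bp upstream (0.756 ± 0.117), nearest to ftt-2 itself. The PAR-4 cofactor genes strd-1, mop-25.1 and mop-25.2 and the kinase genes aak-1, aak-2, sad-1 and kin-29 had none. The contrast in position with par-5, whose peak lies within M117.3, is a description of single genes.

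Of the 7 genes that carry polarity into the cytoplasm, plk-1 (1.85 ± 0.0738), mex-1 (1.60 ± 0.192) and pos-1 (0.418 ± 0.264) had peaks, and mex-3, mex-5, mex-6 and pie-1 had none. The calls of 3 of these turned on the libraries used. From replicate 2 alone pos-1 was not called, from either replicate alone pie-1 was (0.532 ± 0.114), and from replicate 3 alone mex-5 was. The mex-1 summit lay 940 bp upstream and nearest to W03C9.5. Of 8 spindle-positioning genes, lin-5 (2.38 ± 1.67), gpr-1 (1.81 ± 0.0985) and gpr-2 (2.95 ± 0.0571) had peaks, and goa-1, gpa-16, let-99, ric-8 and dhc-1 had none. The gpr-1 and gpr-2 genes are close copies of each other, and their summits lay nearest to polk-1 and rgr-1. The lin-5 values were 1.20 in replicate 2 and 3.56 in replicate 3, the widest spread among the 15. Neither ooc-3 nor ooc-5, needed for PAR localisation, was called. None of the 8 epithelial polarity genes (crb-1, eat-20, let-413, dlg-1, ajm-1, hmr-1, hmp-1 and hmp-2) was called. Over all genes 11% were called, and with lists this small the count in each is a description only. In the pooled list the strongest promoter regions of the 49 genes outside the IDR set reached 21.0, at pie-1.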

How the data were processed

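EFL-1 ChIP-seq regions of 2 replicates on ce11 were used; the labels give a library size range of 150 to 350 bp. Column 7 of the deposited narrowPeak lists is a signal value per region, and column 9 is the −log10 q-value, both as deposited by the authors. Per the deposited notes and lists, each replicate and the pooled data have 30000 regions, and the IDR set of 1886 peaks was derived from them. The sources used here name no peak caller or aligner. Lists on ce10 were not used.

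Summits were assigned with Ensembl release 115 (WBcel235) to every protein-coding gene whose window held them. Replicate values are the strongest region per gene, and the 150 bp neighbourhood of a pooled summit for single regions. Scaled values are means ± SD. Window assignment was tested on simulated data. With 1 group, no test was made; the comparisons are counts beside all genes. Named genes are the 6 par genes, the partner genes except 1 that is not reported here, the neighbours of their summits and the genes of most similar scaled signal. The genes and lists were chosen with earlier results of these data known. Alternatives covered the peak set, each replicate alone, the window, the overlap, the gene assignment and the scale. Tools were Python 3.11.15, pandas 2.3.3, Biopython 1.88 and BLAST 2.17.0.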

Additional observations from a re-analysis of the deposited data

How the results depend on the processing

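Of 29 recomputed values, 24 stayed within 1.5 times the main count or within 1 SD. With 2 replicates, the scaled signal of 1 of them always lies within 1 SD of the mean, so those values could not move. At par-2 and par-5 the region nearest to the summit was the same region as in the main setting, so that value was unchanged. The total of 24 includes these and is no measure of stability. The count of 2 par genes with a promoter summit was 2 with either replicate left out, among the 943 strongest IDR peaks, with 2000 bp upstream and with 1 bp of overlap between peak and window, each time par-2 and par-5. It was 4 with every pooled region and 0 both with 300 bp upstream to 100 bp downstream and with each summit given to the nearest gene. It was 1 of 4 (par-5) among genes with no same-strand gene within 500 bp before them, an alternative chosen after seeing the data; that rule leaves out par-2 and par-6 by construction. The partner count of 15 of 49 was 36 with every pooled region (51.0% of all genes), 18 with 2000 bp upstream, 15 with 1 bp of overlap, and 10 each among the 943 strongest peaks, with the narrow window and by nearest gene. It was 15 to 16 with 1 replicate left out, with other members: pkc-3 was lost without replicate 2 and pos-1 without replicate 3, pie-1 was gained both times and mex-5 without replicate 2. Scaled signal with 1 replicate left out ranged from 7.17 to 10.2 at par-2, from 1.67 to 2.83 at par-5 and from 0.313 to 0.333 at par-1. The 2 par-1 values belong to different promoter regions, with summits 17983 bp apart, and are not replicate values of the same site. At the region before H39E23.1b.1 the values were 0.313 in replicate 2 and 0.326 in replicate 3. No paired analysis was possible because the study holds 1 group. The lists hold 30000 regions each, so a signal under the lowest listed value cannot be told from 0.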
